A study of Homo sapiens with 12 samples.

Results

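TBX10 and 9 other T-box genes (TBX1, TBX2, TBX3, TBX4, TBX5, TBX6, TBX15, TBX18 and TBX19) were followed in A375, an established human malignant melanoma cell line of skin origin. These 10 genes are the rows with those symbols among the 56609 gene symbols of the deposited count table. TBX10 was chosen by its measured rise under JQ1, so its own JQ1 changes are given below as a description, without a test. The other 9 are further genes of the family. Of the 10, 7 had enough counts to be tested (TBX10, TBX1, TBX2, TBX3, TBX6, TBX18 and TBX19), out of 21698 genes tested in all. TBX4, TBX5 and TBX15 did not pass the filter on low counts.

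The cells were wild type or a CRISPR/Cas9 knockout of MAPKAPK2, which encodes MK2, a kinase activated by p38 in stress signalling. Each genotype received either 500 nM JQ1, an inhibitor of the acetyl-lysine-reading BET proteins, or its solvent DMSO for 48 h, and each of the 4 groups had 3 libraries of rRNA-depleted total RNA. The sample titles call the DMSO libraries untreated, whereas their treatment field gives DMSO. The study asked how losing the kinase alters resistance of these cells to BET inhibition. The labels do not say whether the knockout line is 1 clone or whether the libraries of a group came from separate cultures. The p-values thus measure the spread between these libraries, which may be technical. If the line is 1 clone, loss of the kinase and other differences between the lines cannot be told apart.

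T-box genes encode transcription factors that bind DNA through a shared domain, the T-box, and act in the patterning of limbs, heart, face and muscle. Some members activate and others repress their targets. TBX2 and TBX3 are repressors known in melanoma and other tumours for holding down cell-cycle inhibitors such as CDKN1A (p21), and TBX10 is known from craniofacial development. BET proteins bind acetylated histones and help RNA polymerase II move into elongation, and JQ1 displaces them from chromatin.

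Library totals ran from 25316565 to 34594025 counts. Knockout JQ1 replicate 3 stood apart: its counts differed from those of the other knockout JQ1 libraries by a chi-square of 23.8 to 25.1 per degree of freedom, against 3.21 to 7.05 between the other libraries of a group. Calls that change without it are named beside their values. MAPKAPK2 itself had 311 to 497 counts in the knockout libraries and 2483 to 3805 in the wild-type ones, which checks the genotype labels. Melanocyte lineage markers summed to between 460 and 766 CPM (counts per 1000000 counts of the library, after trimmed-mean scaling of library sizes), and none of the 8 was at 0 in all libraries. SOX10, MITF and S100B made up nearly all of this sum, with SOX10 at group means of 436.7 to 563.0 CPM. The pigment genes PMEL, TYR, MLANA, DCT and TYRP1 were near 0, with a highest group mean of 1.18 CPM (PMEL, knockout JQ1). Each list of keratinocyte, fibroblast, blood or endothelial markers summed to at most 7.12 CPM, with 1 of the 4 keratinocyte markers at 0 throughout. The melanocyte sum was 460 to 535 CPM in DMSO and 560 to 766 CPM under JQ1, and the fibroblast sum 4.99 to 6.53 CPM in DMSO and 1.16 to 1.60 CPM under JQ1. The part of these shifts in the T-box values was not tested, and in bulk RNA fewer cells of a type and less RNA per cell cannot be told apart.

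The start regions of 5 members with calls or a chosen change under JQ1 are printed first, so that they can be compared. RefSeq (GRCh38.p14) held promoters for 7 of the 10 member symbols. Of these, TBX10 and TBX19 are shown because their counts were higher under JQ1 in both genotypes, TBX18 because it fell in both, and TBX6 and TBX1 because they fell and rose in wild type. Each is 300 bases in the direction of transcription, 5′ to 3′, with the 50 bases from the RefSeq start site onward in capitals.
TBX10, chr11:67639714-67640013, minus strand: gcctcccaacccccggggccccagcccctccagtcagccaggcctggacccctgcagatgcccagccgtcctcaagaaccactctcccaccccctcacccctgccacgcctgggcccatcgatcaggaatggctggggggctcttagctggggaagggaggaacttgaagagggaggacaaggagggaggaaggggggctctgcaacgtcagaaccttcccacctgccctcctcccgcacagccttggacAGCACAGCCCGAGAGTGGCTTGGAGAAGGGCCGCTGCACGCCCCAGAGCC
TBX19, chr1:168280627-168280926, plus strand: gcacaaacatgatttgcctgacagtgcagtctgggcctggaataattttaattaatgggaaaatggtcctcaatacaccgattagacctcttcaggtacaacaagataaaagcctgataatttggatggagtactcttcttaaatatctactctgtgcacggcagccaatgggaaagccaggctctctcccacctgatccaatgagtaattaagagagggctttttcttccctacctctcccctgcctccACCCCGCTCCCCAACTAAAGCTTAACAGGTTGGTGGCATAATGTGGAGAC
TBX18, chr6:84764549-84764848, minus strand: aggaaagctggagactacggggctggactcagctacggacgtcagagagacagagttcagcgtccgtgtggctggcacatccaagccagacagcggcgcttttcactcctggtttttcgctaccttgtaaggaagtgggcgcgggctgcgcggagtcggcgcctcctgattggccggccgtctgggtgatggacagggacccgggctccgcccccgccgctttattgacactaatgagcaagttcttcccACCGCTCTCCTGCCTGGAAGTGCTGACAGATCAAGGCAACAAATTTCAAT
TBX6, chr16:30091875-30092174, minus strand: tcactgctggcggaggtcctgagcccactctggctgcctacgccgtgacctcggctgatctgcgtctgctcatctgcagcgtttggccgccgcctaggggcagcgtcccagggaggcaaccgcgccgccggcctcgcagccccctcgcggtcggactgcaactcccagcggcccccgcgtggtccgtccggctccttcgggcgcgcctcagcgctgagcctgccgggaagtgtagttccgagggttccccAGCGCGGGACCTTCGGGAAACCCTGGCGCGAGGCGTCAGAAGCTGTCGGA
TBX1, chr22:19756453-19756752, plus strand: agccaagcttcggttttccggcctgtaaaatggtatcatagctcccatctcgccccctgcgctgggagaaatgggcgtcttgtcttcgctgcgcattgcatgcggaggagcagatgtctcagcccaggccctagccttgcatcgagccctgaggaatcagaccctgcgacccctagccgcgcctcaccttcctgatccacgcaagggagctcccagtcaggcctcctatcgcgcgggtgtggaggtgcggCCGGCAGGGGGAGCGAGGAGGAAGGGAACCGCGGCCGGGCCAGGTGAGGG

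The TBX10 window is 67.7% G and C that of TBX6 71.3% and that of TBX1 64.7%, all above the median of 58.7% over 35116 promoters. TBX18 lies near that median at 59.3%, and TBX19 below it at 46.0%. The windows of TBX10 and TBX19, both higher under JQ1, thus lay on opposite sides of the median. A script searched both strands for 5 motifs that do not overlap one another: TCACACCT (a T-box element, in 0.98% of all promoters), CACGTG (an E-box, 7.26%), TATAAA (11.53%), CCGCCC (a GC box, 44.95%) and TGACTCA (an AP-1 element, 4.95%). None of these letters was found in the windows of TBX10, TBX19, TBX6 or TBX1, and TBX18 held 1 CCGCCC, 43 bases before its start. The RefSeq start of TBX10 lies 203 bases upstream of the start in GENCODE 29, that of TBX19 163 and that of TBX18 79. The windows of these genes therefore cover the RefSeq start only.

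TBX10 went from barely detected in DMSO to among the higher T-box transcripts under JQ1. The gene has 8 exons in 1 annotated transcript of 1548 bases (ENSG00000167800, GRCh38, chr11:67631303-67639560, minus strand). Its counts were 43, 22 and 36 in wild-type DMSO and 514, 389 and 391 in wild-type JQ1. In the knockout they were 6, 11 and 5 in DMSO, and 112, 114 and 204 under JQ1. All JQ1 libraries lay above all DMSO libraries, and within each treatment every knockout library lay below every wild-type library. All 12 values were whole numbers in the table of estimated counts (within 1e-06), whereas TBX2 and TBX3 had a fractional estimate in every library.

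**Figure D1:**
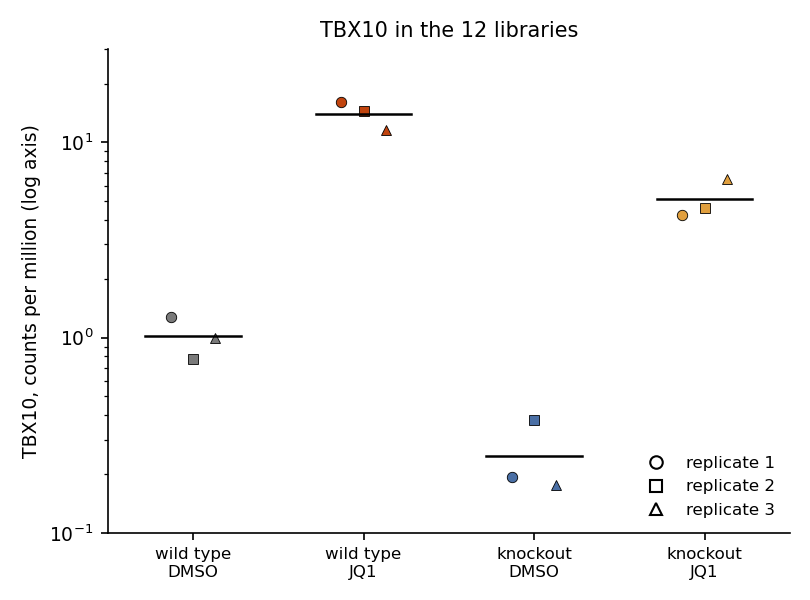
TBX10 in CPM (log axis) in each of the 12 libraries, by genotype and treatment; symbols mark replicate numbers and bars the group means. The 4 groups do not overlap: the means are 1.02 and 14.0 CPM in wild type (DMSO, JQ1) and 0.249 and 5.12 CPM in the knockout.

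In wild type TBX10 averaged 1.02 ± 0.252 CPM in DMSO and 14.0 ± 2.31 CPM under JQ1 (SD, n = 3), a 13.8-fold ratio and a fitted log2 fold change of 3.77 (SE 0.22). In the knockout it averaged 0.249 ± 0.112 CPM in DMSO and 5.12 ± 1.18 CPM under JQ1, a 20.6-fold ratio and a log2 fold change of 4.35 (SE 0.30), or 4.14 without knockout JQ1 replicate 3. By the mean of both log2 fold changes TBX10 ranked 6 among the 21698 genes tested and 1 among the 11755 with at least 5 CPM in a group. The 5 genes above it (CLU, AL031848.2, RAB4B-EGLN2, EDA and AL358472.5) peaked at group means of 0.368 to 3.09 CPM. Just outside, with the level minimum, stood ANGPTL4 at a mean log2 fold change of 3.52 and WNT9A at 3.45, against 4.06 for TBX10. These ranks restate the choice of the gene and carry no test.

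TBX10 was lower in the knockout in both treatments. This comparison was not the one used to choose the gene. It shares its libraries with the JQ1 comparisons that were, so its p-values are not independent of the choice. In DMSO its level was 4.09-fold lower than in wild type (log2 fold change -2.03, SE 0.36, 95% interval -2.80 to -1.26, adjusted p = 0.00221 by the quasi-likelihood test of edgeR, Benjamini-Hochberg adjusted over all genes tested). Under JQ1 it was 2.75-fold lower (log2 fold change -1.45, SE 0.18, interval -1.84 to -1.05, edgeR adjusted p = 1.34e-04). Without knockout JQ1 replicate 3, the highest knockout library, the JQ1 value was -1.66. The DMSO value rests on 5 to 11 counts per knockout library, and leaving out single libraries moved it between -2.43 and -1.82.

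The knockout response of TBX10 to JQ1 exceeded its wild-type response by 0.58 on the log2 scale (SE 0.42), or by 0.37 without knockout JQ1 replicate 3. This difference uses the JQ1 comparisons by which the gene was chosen and is given as a description.

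TBX2 and TBX3, the repressors best known in melanoma, had the highest levels per transcript length among the 7 tested members in wild-type DMSO. TBX2 (chr17:61399896-61409466, plus strand) had 749, 659 and 793 counts in wild-type DMSO and 952, 758 and 794 in wild-type JQ1. In the knockout it had 246, 365 and 301 counts in DMSO and 480, 491 and 913 under JQ1. The knockout DMSO libraries were thus the low ones, and knockout JQ1 replicate 3 was well above the other libraries of its group.

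TBX2 was 2.18-fold lower in the knockout than in wild type in DMSO, 10.3 ± 2.33 against 22.5 ± 0.782 CPM (SD, n = 3; log2 fold change -1.12, SE 0.17, edgeR adjusted p = 7.85e-04). JQ1 raised it in the knockout to 22.4 ± 5.72 CPM, a log2 fold change of 1.12 (SE 0.17, edgeR adjusted p = 1.51e-04), or 0.89 without knockout JQ1 replicate 3. In wild type the JQ1 mean was 27.2 ± 3.31 CPM and the log2 fold change 0.27 (SE 0.16, edgeR adjusted p = 0.228), although in CPM its libraries did not overlap those of DMSO. Under JQ1 the genotypes overlapped, with a log2 difference of -0.27 (edgeR adjusted p = 0.390). Without knockout JQ1 replicate 3 that difference was -0.51 and passed the test (edgeR adjusted p = 0.0279).

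The difference between the TBX2 responses was 0.85 on the log2 scale (SE 0.24, 95% interval 0.34 to 1.36). It did not pass (edgeR adjusted p = 0.273, from an unadjusted p of 0.00312). With no filter on low counts the same difference passed (edgeR adjusted p = 2.07e-04), so the call depends on that filter. Without knockout JQ1 replicate 3 it was 0.62 (edgeR adjusted p = 0.179). TBX2 and TBX10 were both lower in the knockout in DMSO.

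MITF, the melanocyte master regulator that is known to activate TBX2, was also lower in the knockout. It averaged 43.1 ± 1.01 CPM in wild-type DMSO and 28.8 ± 2.85 CPM in knockout DMSO (log2 fold change -0.58, edgeR adjusted p = 3.23e-04). Under JQ1 it averaged 39.2 ± 1.41 and 30.5 ± 2.55 CPM (log2 fold change -0.37, edgeR adjusted p = 0.0102), a call lost in a fit of only the groups compared (0.0534). Its part in the TBX2 values was not tested.

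An antisense transcript, TBX2-AS1 (chr17:61393456-61411555, minus strand), spans TBX2. It had 75 to 94 counts in wild-type DMSO, 56 to 68 in wild-type JQ1, 59 to 78 in knockout DMSO and 45 to 61 in knockout JQ1. It fell under JQ1 in wild type (log2 fold change -0.44, SE 0.15, edgeR adjusted p = 0.0305), in the direction opposite to the TBX2 means, and in the knockout its log2 difference was -0.36 (edgeR adjusted p = 0.0802). The wild-type call was lost without wild-type DMSO replicate 1, 2 or 3 or wild-type JQ1 replicate 1 or 3, with edgeR adjusted p from 0.0584 to 0.122, with no filter on low counts (0.176) and by DESeq2 (0.101). The library kit keeps strand, but the sources used here do not say whether the counting used it, so reads of the overlapping pair may not be separated.

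TBX3 (chr12:114670254-114684164, minus strand), a close relative of TBX2, was not called in any comparison. It had 1325, 1231 and 1475 counts in wild-type DMSO and 1687, 1311 and 1460 in wild-type JQ1. In the knockout it had 1214, 1122 and 1156 counts in DMSO and 1038, 991 and 1567 under JQ1. The mean CPM were 41.2 ± 2.13, 48.3 ± 4.91, 39.3 ± 1.09 and 43.1 ± 5.63 in that order, and the libraries overlapped in each comparison. Its log2 differences under JQ1 were 0.23 and 0.13 (edgeR adjusted p = 0.0711 in wild type and 0.300 in the knockout). Without wild-type JQ1 replicate 3 the wild-type value passed at 0.31 (edgeR adjusted p = 0.0271). Without knockout JQ1 replicate 3 it passed in wild type at 0.23 (edgeR adjusted p = 0.0142) and, lower in the knockout under JQ1, at -0.28 (edgeR adjusted p = 0.0342).

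TBX18 and TBX19 responded to JQ1 in opposite directions, each in both genotypes. TBX18, a repressor that acts in the developing ureter, heart and somites, is encoded at chr6:84687351-84764519 (minus strand). It had 712, 549 and 718 counts in wild-type DMSO, 425, 350 and 500 in wild-type JQ1, 613, 565 and 545 in knockout DMSO and 326, 327 and 337 in knockout JQ1. Every JQ1 library lay below every DMSO library of its genotype. JQ1 lowered it from 20.1 ± 0.955 to 13.7 ± 0.954 CPM in wild type (log2 fold change -0.55, SE 0.09, edgeR adjusted p = 2.28e-04) and from 19.4 ± 0.260 to 12.1 ± 1.33 CPM in the knockout (-0.68, SE 0.09, edgeR adjusted p = 3.60e-05).

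TBX19 (T-pit), known for driving the POMC gene in the pituitary, is encoded at chr1:168281040-168314426 (plus strand). It had 100, 77 and 110 counts in wild-type DMSO, 156, 172 and 155 in wild-type JQ1, 84, 103 and 53 in knockout DMSO and 151, 149 and 179 in knockout JQ1. In CPM each JQ1 library lay above the DMSO libraries of its genotype. JQ1 raised it from 2.91 ± 0.161 to 5.29 ± 0.960 CPM in wild type (log2 fold change 0.85, SE 0.19, edgeR adjusted p = 0.00252) and from 2.70 ± 0.838 to 5.82 ± 0.199 CPM in the knockout (1.11, SE 0.19, edgeR adjusted p = 3.42e-04). Its known target POMC did not exceed a group mean of 0.0127 CPM. Neither TBX18 nor TBX19 differed between genotypes by the test, with log2 differences between -0.18 and 0.14.

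TBX1 and TBX6 were low, and their responses passed the test in wild type only, which is no test of a difference. TBX1, a pharyngeal and heart-outflow factor (chr22:19756703-19783593, plus strand), had 32, 25 and 45 counts in wild-type DMSO and 63, 52 and 46 in wild-type JQ1. In the knockout it had 30, 41 and 54 counts in DMSO and 31, 26 and 47 under JQ1. In CPM the wild-type JQ1 libraries all lay above the wild-type DMSO libraries, and the knockout groups overlapped. Its log2 fold change under JQ1 was 0.76 in wild type (SE 0.26, edgeR adjusted p = 0.0344) and -0.18 in the knockout (SE 0.26, edgeR adjusted p = 0.650). Their difference of -0.94 (SE 0.37) had an unadjusted edgeR p of 0.0227 and an adjusted one of 0.510. The wild-type call was lost without wild-type DMSO replicate 1 or 2 or wild-type JQ1 replicate 1 or 2, with edgeR adjusted p up to 0.118.

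TBX6, a factor of presomitic mesoderm (chr16:30085793-30091887, minus strand), had 59, 58 and 51 counts in wild-type DMSO and 33, 22 and 24 in wild-type JQ1. In the knockout it had 39, 62 and 50 counts in DMSO and 31, 30 and 31 under JQ1. The JQ1 libraries were the low ones in both genotypes. The log2 fold change was -1.01 in wild type (SE 0.24, edgeR adjusted p = 0.00461) and -0.61 in the knockout (SE 0.24, edgeR adjusted p = 0.0647), and the difference of 0.41 between them did not pass (edgeR adjusted p = 0.797). Without knockout DMSO replicate 1 the knockout value passed at -0.79 (edgeR adjusted p = 0.0227).

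The 3 untested members were near 0. TBX5, a heart and forelimb factor, had 1 count in knockout JQ1 replicate 1 and 0 in the other 11 libraries. TBX4, its hindlimb relative, had 1 to 14 counts and TBX15, a limb and fat factor, 0 to 7. Libraries of every group for TBX4 overlapped, and TBX15 was at 0 in all 3 knockout JQ1 libraries and in 1 library of each other group.

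**Figure D2:**
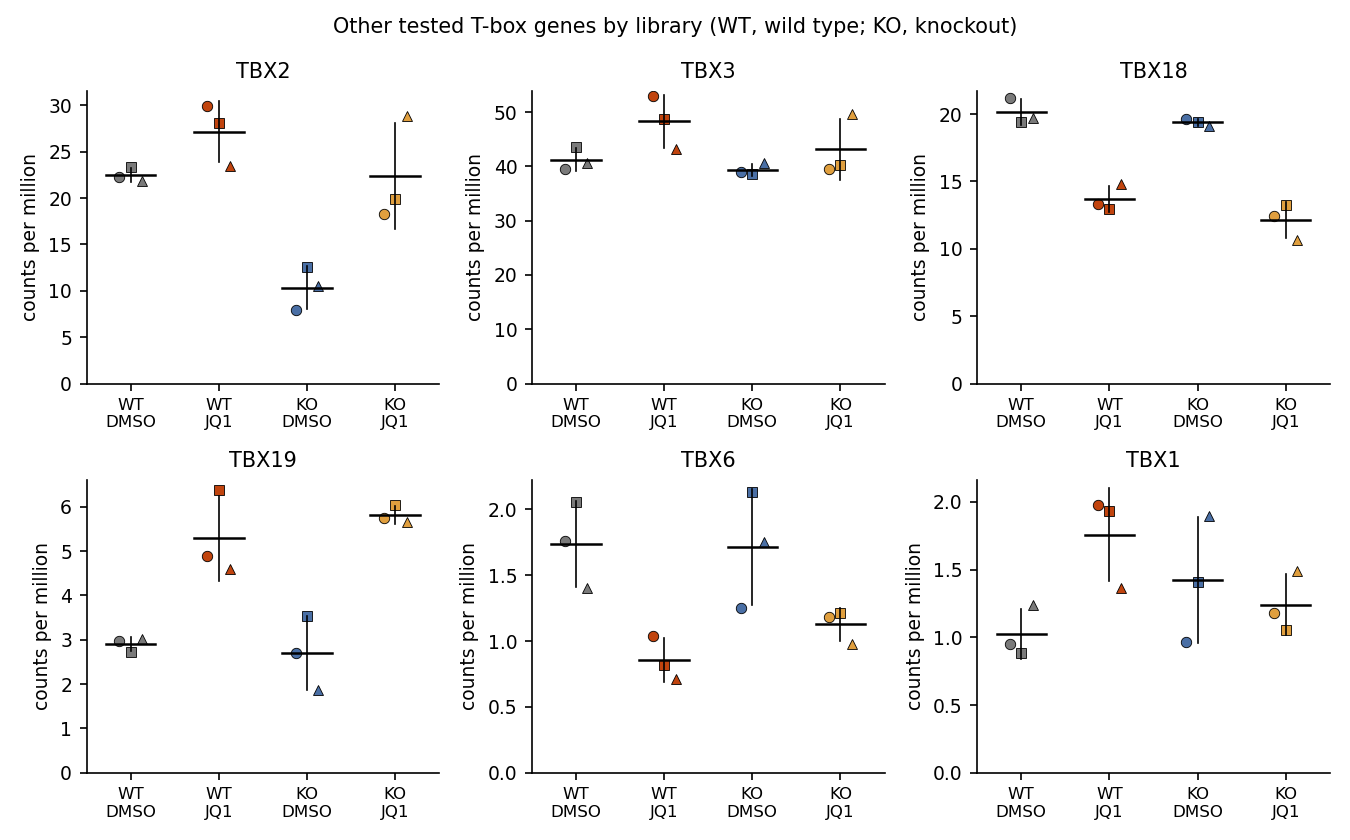
CPM of the other 6 tested T-box genes in each library (circle, square and triangle for replicates 1, 2 and 3), with group means (horizontal bars) and SD (vertical lines); each panel has its own axis from 0. TBX2 is lowest in knockout DMSO at 10.3 CPM, TBX18 is lower under JQ1 in both genotypes and TBX19 higher.

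As a group, the members moved with JQ1 in both directions. Leaving TBX10 out, 4 of 6 tested members passed in wild type, where 33.1% of all genes did. TBX1 and TBX19 were higher, against 16.9% of genes, and TBX6 and TBX18 lower, against 16.2%. In the knockout 3 of 6 passed, with 34.4% of all genes called. TBX2 and TBX19 were higher, against 16.7% of genes, and TBX18 lower, against 17.8%. Beside background shares of this size, counts of 3 and 4 of 6 are not a result about the family. With scaling by library totals alone, the all-gene median moved to -0.16 in wild type and -0.12 in the knockout. Its calls over all genes were then 2298 higher and 5368 lower in wild type, against 3665 and 3522 with trimmed-mean scaling, and 2409 higher and 5250 lower in the knockout, against 3616 and 3856. The median log2 fold change of the 6 was 0.25 in wild type and -0.02 in the knockout, beside -0.03 and -0.0035 over all genes.

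Between genotypes, the calls among the members were lower in the knockout and rested on TBX10 and TBX2. Leaving TBX10 out, 1 of 6 tested members passed in DMSO, TBX2, where 7.92% of genes were called, 3.47% higher and 4.44% lower. Under JQ1 0 of 6 passed, where 8.57% were called, 3.01% higher and 5.56% lower. With TBX10, which was chosen from these same libraries, the counts were 2 of 7 in DMSO and 1 of 7 under JQ1. Without knockout JQ1 replicate 3, TBX2 and TBX3 were also called lower under JQ1, where 2331 of 22273 genes were called, 1481 of them lower. The medians of the 6 members other than TBX10 were -0.06 in DMSO and -0.17 under JQ1, beside -0.005 and -0.0015 over all genes. For the difference of the JQ1 responses 0 of the 6 tested members other than TBX10 passed by edgeR, where 0.134% of genes did (0.0323% higher and 0.101% lower). By DESeq2 0 of the 6 passed as well, where 139 of 21698 genes did. The comparisons share groups: each DMSO or JQ1 group enters a drug and a genotype comparison, so their values are given side by side and not related to each other.

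**Figure D3:**
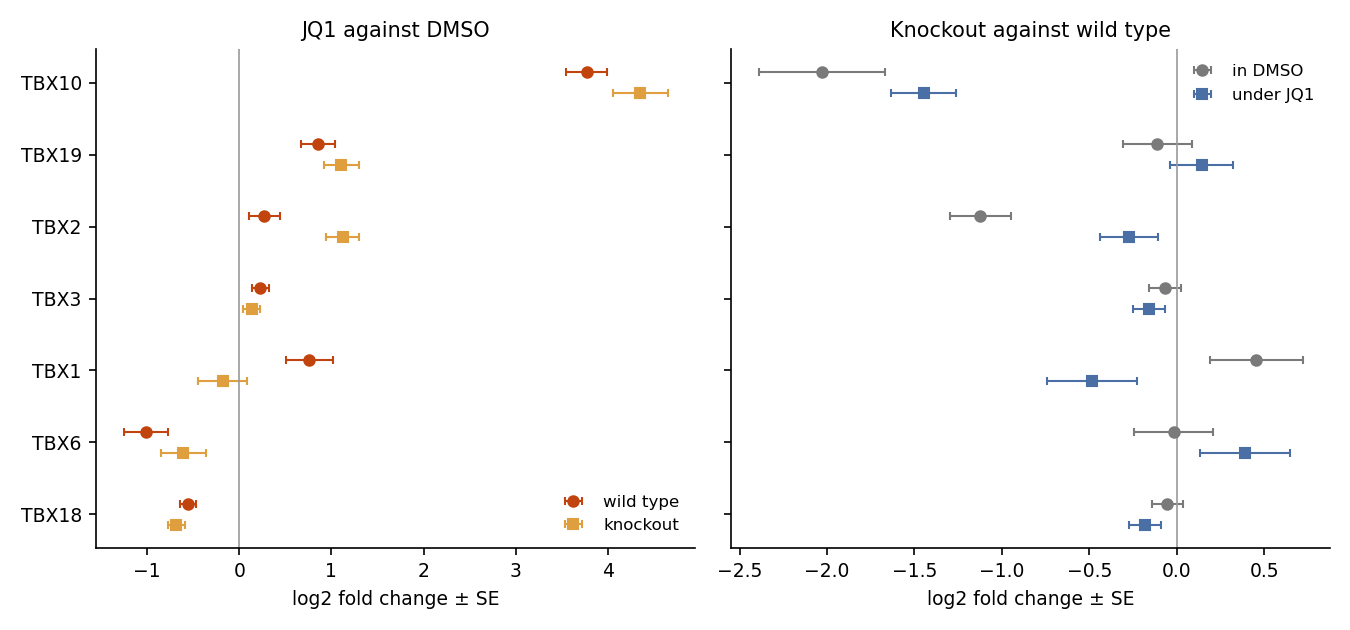
Fitted log2 fold changes ± SE of the 7 tested members, JQ1 against DMSO (left; circles wild type, squares knockout) and knockout against wild type (right; circles in DMSO, squares under JQ1). TBX10 lies far right of the others at 3.77 and 4.35 on the left, and TBX10 (-2.03) and TBX2 (-1.12) lie lowest in DMSO on the right.

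Per kilobase of the principal annotated transcript, the order of the members changed with treatment. In wild-type DMSO it was TBX3 (8.72 ± 0.451 CPM per kb), TBX2 (6.73 ± 0.234), TBX18 (3.22 ± 0.153), TBX19 (1.03 ± 0.0569), TBX6 (0.964 ± 0.181), TBX10 (0.657 ± 0.163) and TBX1 (0.492 ± 0.0895), as SD over 3 libraries. TBX19 and TBX6, TBX6 and TBX10, and TBX10 and TBX1 were neighbours within their spread. Under JQ1 in wild type TBX10 reached 9.08 ± 1.49 CPM per kb, between TBX3 at 10.2 ± 1.04 and TBX2 at 8.14 ± 0.992. The SD range of TBX10 overlapped that of each, whereas those of TBX3 and TBX2 did not quite meet. In knockout DMSO TBX10 was last of the 7 at 0.161 ± 0.0725 CPM per kb, and in knockout JQ1 it was the third at 3.30 ± 0.760, below TBX2 at 6.70 ± 1.71 and above TBX19 at 2.06 ± 0.0706. Without knockout JQ1 replicate 3 the knockout JQ1 means of TBX10 and TBX2 were 4.45 and 19.1 CPM, in place of 5.12 and 22.4 CPM.

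**Figure D4:**
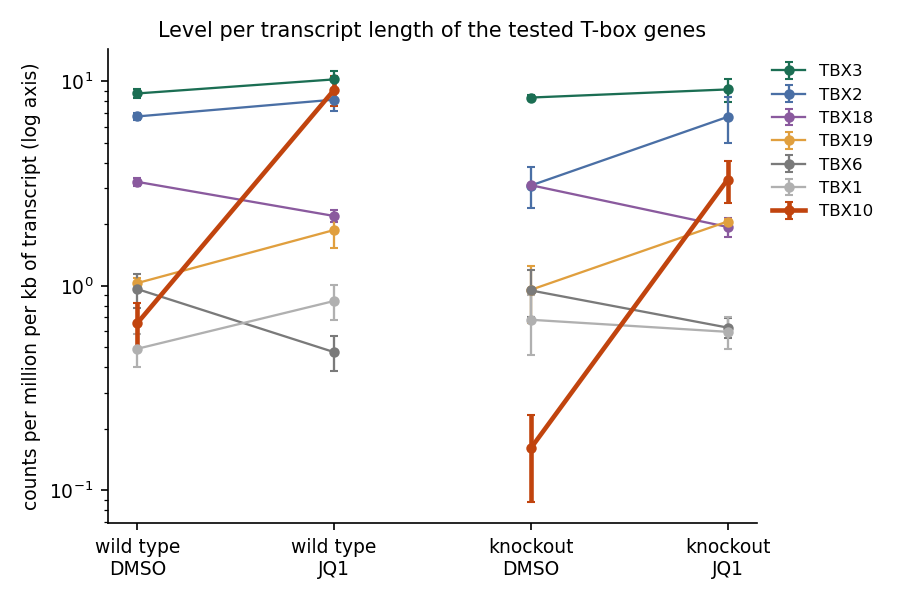
Level of the 7 tested members in CPM per kilobase of transcript (log axis) as group mean ± SD of 3 libraries; lines join DMSO and JQ1 of one genotype. TBX10 (thick line) goes from 0.657 to 9.08 CPM per kb in wild type, into the range of TBX3 and TBX2, and from 0.161 to 3.30 CPM per kb in the knockout.

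Other human T-box genes gave 3 tested genes of 7. TBX20, a heart factor, had 77 to 155 counts over the 12 libraries and EOMES, a T cell and neural progenitor factor, 22 to 38. Neither passed in any comparison. MGA, a very large T-box protein that also pairs with MAX, was at 99.6 ± 4.85 and 98.3 ± 1.01 CPM in wild type (DMSO, JQ1) and fell in the knockout from 101.8 ± 6.41 to 87.4 ± 5.70 CPM under JQ1 (log2 fold change -0.22, SE 0.06, edgeR adjusted p = 0.0154). That call was lost without knockout DMSO replicate 1 (edgeR adjusted p = 0.0947) or 3 (0.0595), and with only the groups compared (0.0716). TBX21, TBXT, TBX22 and TBR1 were at or near 0.

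The locus of TBX10 on chromosome 11 was read for its neighbours. NUDT8, a nudix hydrolase gene, lies 1372 bases beyond the 3′ end of TBX10 on the same strand (chr11:67627938-67629930). It had 116, 104 and 97 counts in wild-type DMSO, 265, 227 and 263 in wild-type JQ1, 89, 79 and 82 in knockout DMSO and 94, 90 and 164 in knockout JQ1. The wild-type JQ1 libraries were the high ones. NUDT8 rose under JQ1 in wild type (log2 fold change 1.33, SE 0.15, edgeR adjusted p = 1.18e-05) and less in the fit in the knockout (0.56, SE 0.16, edgeR adjusted p = 0.0147). The knockout call was lost without knockout JQ1 replicate 3 (0.36, edgeR adjusted p = 0.0835), with limma on the deposited signal (0.0610) and with the authors' factors (0.0542).

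Under JQ1 NUDT8, like TBX10, was lower in the knockout (log2 fold change -0.97, SE 0.15, edgeR adjusted p = 8.05e-04), whereas in DMSO its difference of -0.21 did not pass (edgeR adjusted p = 0.555). The difference of its JQ1 responses was -0.76 (SE 0.22, edgeR adjusted p = 0.309), of opposite sign to that of TBX10, and it passed at -0.97 without knockout JQ1 replicate 3 (edgeR adjusted p = 0.0493). DOC2GP, a pseudogene 11680 bases further on, was lower in knockout DMSO (log2 fold change -1.25, SE 0.27, edgeR adjusted p = 0.00973) with 14 to 21 counts in the knockout DMSO libraries and 39 to 58 in the wild-type ones. Under JQ1 its difference was -0.94 (edgeR adjusted p = 0.0503). It passed in 1 of the 12 fits with 1 library left out (edgeR adjusted p = 0.0307) and in 4 of 8 other settings. That DMSO call was lost when either knockout replicate 3 or wild-type replicate 1 was left out (edgeR adjusted p = 0.0543 and 0.0561). NDUFV1, a subunit gene of respiratory complex I, stayed at group means of 104.4 to 106.0 CPM. On the other side ACY3, whose end lies 2994 bases upstream of TBX10, had 0 to 5 counts.

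**Figure D5:**
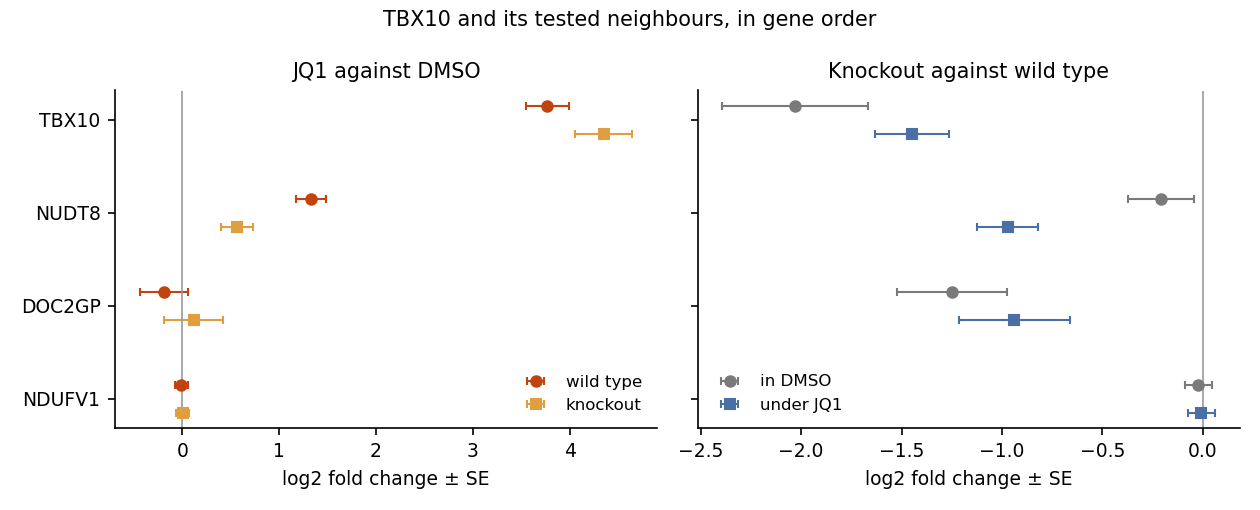
Fitted log2 fold changes ± SE of TBX10 and the 3 tested genes next to it in chromosome order, for JQ1 against DMSO (left; circles wild type, squares knockout) and knockout against wild type (right; circles in DMSO, squares under JQ1). NUDT8 is above 0 under JQ1 at 1.33 and 0.56, DOC2GP is below 0 in the knockout at -1.25 and -0.94, and NDUFV1 lies at 0.

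Across the 12 libraries the genes most like TBX10 in log2 CPM, among 15409 with a mean of at least 1 CPM, were RHOB (Pearson's r = 0.994), PFKFB4 (0.988), AC109326.1 (0.988), HBEGF (0.987) and FTH1 (0.986). RHOB encodes a small GTPase, PFKFB4 a regulator of glycolysis, HBEGF a ligand of the EGF receptor and FTH1 the ferritin heavy chain. RHOB averaged 25.4 and 65.0 CPM in wild type (DMSO, JQ1) and 16.2 and 43.5 CPM in the knockout, the same order of groups as TBX10. Of the members, TBX19 (0.867) and TBX2 (0.827) were most like TBX10 and TBX18 (-0.809) and TBX6 (-0.796) least. Among all 15409 genes TBX19 ranked only 849 and TBX2 1361. These coefficients describe 12 libraries in 4 groups, and carry no test. Over the 11 libraries without knockout JQ1 replicate 3, those of the 5 genes were 0.987 to 0.994, and those of TBX19, TBX2, TBX18 and TBX6 were 0.861, 0.818, -0.837 and -0.785.

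Some T-box factors repress through Groucho-type corepressors of the TLE family. Of 18 listed partners and corepressors 15 were tested. In wild type 2 were higher and 5 lower under JQ1, where 33.1% of all genes were called (16.9% higher and 16.2% lower). In the knockout 1 was higher and 5 lower, where 34.4% were called (16.7% higher and 17.8% lower). The list as a set was not tested. The tested TLE genes, counting TLE5 under its older symbol AES, went both ways. TLE1 rose in both (log2 fold change 0.93 in wild type and 0.98 in the knockout, edgeR adjusted p = 1.08e-05 and 5.75e-06). TLE2 (-1.37 and -1.74), TLE3 (-0.97 and -1.10) and TLE4 (-0.59 and -0.87) fell in both, with edgeR adjusted p from 2.24e-06 to 7.30e-04. AES fell in both as well (-0.48 and -0.55, edgeR adjusted p = 9.62e-04 and 3.17e-04). SALL4, a zinc finger partner of TBX5, fell by 0.53 and 0.78 on the log2 scale (edgeR adjusted p = 0.00223 and 9.94e-05). The median over the 15 was -0.13 in wild type and -0.18 in the knockout. Between genotypes 1 of 15 passed in each treatment, TLE4, higher in the knockout by 0.63 in DMSO and 0.36 under JQ1 (edgeR adjusted p = 2.37e-04 and 0.0187), where 7.92% and 8.57% of all genes were called. The JQ1 call was lost without wild-type JQ1 replicate 3 (edgeR adjusted p = 0.0942), with only the groups compared (0.0798), with limma on the deposited signal (0.127) and with the authors' factors (0.121).

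Of 18 genes known as T-box targets 9 were tested. In wild type 3 were higher and 1 lower under JQ1, where 33.1% of all genes were called (16.9% higher and 16.2% lower). In the knockout 2 were higher and 2 lower, where 34.4% were called (16.7% higher and 17.8% lower). With 9 genes tested, these counts are not a result about the list. CDKN1A, the cell-cycle inhibitor that TBX2 and TBX3 are known to repress, went from 57.7 ± 1.86 to 148.5 ± 6.54 CPM in wild type and from 84.1 ± 3.22 to 172.5 ± 11.9 CPM in the knockout (log2 fold change 1.37 and 1.04, edgeR adjusted p = 1.55e-09 and 1.30e-08). It was also higher in the knockout in DMSO (log2 fold change 0.54, edgeR adjusted p = 5.47e-05) and under JQ1 (0.22, edgeR adjusted p = 0.0405). A part of TBX2 or TBX3 in these values was not tested. The call under JQ1 was lost without knockout JQ1 replicate 3, without wild-type DMSO replicate 1 or 3 and without any of the 3 wild-type JQ1 libraries, with edgeR adjusted p from 0.0504 to 0.159. It was also lost with no filter on low counts (0.110), library totals only (0.0595), the replicate block (0.0632) and only the groups compared (0.139).

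NDRG1, a stress-response gene that TBX2 is known to repress, rose under JQ1 (log2 fold change 0.94 and 1.13, edgeR adjusted p = 7.96e-08 and 1.28e-08) but was lower in the knockout (-1.12 in DMSO and -0.93 under JQ1, edgeR adjusted p = 9.15e-08 and 3.99e-07). CDKN1A and NDRG1 thus went opposite ways in the knockout. GJA5, a connexin gene activated by TBX5 in the heart, fell under JQ1 (-1.82 and -2.41, edgeR adjusted p = 4.14e-06 and 1.76e-06) and was lower in the knockout (-1.06 and -1.66, edgeR adjusted p = 0.00148 and 4.61e-04). In the knockout under JQ1, CDKN2A was lower by a log2 difference of -0.70 (edgeR adjusted p = 0.00647). Between genotypes 3 of 9 targets passed in DMSO and 4 of 9 under JQ1, beside 7.92% and 8.57% of all genes. For the difference of the JQ1 responses 0 of 9 did by edgeR, where 0.134% of all genes did. By DESeq2 1 of 9 did, where 139 of 21698 genes did. These lists name known partners and targets and do not show whether any T-box protein acts on them here.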

How the data were processed

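RNA from 12 A375 libraries (4 groups of 3) was sequenced after rRNA depletion with a directional kit. The authors deposited estimated counts for 56609 gene symbols and a normalized signal for 32828, in which each count is divided by a factor for the gene and the library. Per the submitters' processing notes, Trim Galore, cutadapt, FastQC, MultiQC, kallisto, DESeq2 and build GRCh38.p10 were used, with roles and versions not given in the sources used here. How kallisto's transcript estimates became gene counts, and whether strand was used, is likewise not given.

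Here the estimated counts were rounded and tested with edgeR 4.0.16 in R 4.3.3 (quasi-likelihood, trimmed-mean scaling, filterByExpr, 1 term per group over all 12 libraries). P-values were Benjamini-Hochberg adjusted over all 21698 genes tested, with a threshold of 0.05 and a prior count of 0.125. Total counts of 25316565 to 34594025 bound the precision of low genes, and intervals cover the spread between libraries. The plan had assumed whole counts. The scripts were tested on simulated data. CPM use the scaled library sizes. Gene models are from GENCODE 29, and per-kilobase values use the principal (APPRIS) transcript. Promoters are from RefSeq.

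The members and lists were chosen with earlier results of these data known. Genes were named by rule: the members, other T-box genes, antisense partners, MAPKAPK2, up to 4 genes per list and contrast with the smallest adjusted p, 3 neighbours on each side, the genes next to TBX10 in rank and the 5 most like it. Alternatives were no filter, library totals only, a replicate block, only the groups compared, DESeq2 1.42.0, limma 3.58.1 on log2 of the deposited signal plus 1, the authors' factors as offsets, a prior count of 2 and each library left out. Their use on genes outside the family, the likeness values without 1 library and the AES values were added after seeing the data. The values of 1 gene of the target list are not reported here.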

Additional observations from a re-analysis of the deposited data

How the results depend on the processing

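TBX10 was lower in the knockout under every alternative run, with log2 fold changes of -2.43 to -1.80 in DMSO (edgeR, limma or DESeq2 adjusted p at most 0.0161) and -1.66 to -1.33 under JQ1 (at most 0.00295). The difference of its JQ1 responses ran from 0.36 to 0.99. With TBX10 counted, the count of members called under JQ1 between genotypes was 1 to 3 over the left-out libraries. It reached 3 without knockout JQ1 replicate 3, where 2331 of 22273 genes were called. For the difference of the JQ1 responses it was 1 (TBX2) with no filter on low counts, where 236 of 42381 genes were called. The cause was not tested. Uncalled differences that changed sign were TBX6 between genotypes in DMSO (0.0257 with limma on the deposited signal, 0.0465 with the authors' factors, -0.19 to 0.18 over left-out libraries), TBX19 in the same comparison (-0.34 to 0.10 over left-out libraries) and TBX1 under JQ1 in the knockout (-0.40 to 0.085 over left-out libraries).

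The TBX1 call in wild type was lost with library totals only (edgeR adjusted p = 0.0669). In wild type under JQ1, TBX2 passed with no filter (0.0481) and with only the groups compared (0.0123), and TBX3 did with these (0.0373 and 0.0109) and by DESeq2 (0.0449). TBX6 in the knockout passed with library totals only (0.0310) and with the authors' factors (0.0497).

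Same-numbered libraries of different groups showed no common deviation as a set (r of -0.29 to 0.21, with 3 of 12 libraries closest to their own number). The 2 of 18 pairs above 0.1 both joined knockout DMSO and knockout JQ1 (0.21 for replicate 1 and 0.16 for replicate 3). Deviations from a mean of 3 libraries cannot exclude a pairing by number. With the replicate block and TBX10 left out, 4 and 3 members were called under JQ1 (wild type, knockout), where 6789 and 7136 of 21698 genes were. With TBX10 counted, 2 and 1 were called between genotypes (DMSO, JQ1), where 1487 and 1569 genes were. For the difference 0 members were called, where 21 genes were. These member counts were the same as without the block. TBX10 had -2.03 (edgeR adjusted p = 0.00640) and -1.44 (8.22e-04) between genotypes and a difference of responses of 0.58 in the fit with the block. Low counts limit TBX4, TBX5 and TBX15, and the 5 to 11 counts of TBX10 in knockout DMSO.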
